A study of Homo sapiens with 4 samples.

Results

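The transcripts described here come from 4 genes of small GTPase signalling: ARF3, ARHGDIA, RASSF2 and RASL10B. They were selected by position on hg19, as every consolidated region of the deposited list, and every aligned read inside it, that overlaps 1 of the genes on its own strand. This gave 8 of the 1181 regions, of which 4 lie in ARF3 (chromosome 12 from 49329506 to 49351334, minus strand) and 1 in ARHGDIA (chromosome 17 from 79825597 to 79829282, minus strand). RASSF2 (chromosome 20 from 4760668 to 4804291, minus strand) holds 1 region and RASL10B (chromosome 17 from 34058679 to 34070540, plus strand) holds 2. The genes were proposed with the read numbers of their regions already known. Read numbers and their difference between experiments are therefore given as a description, with no test.

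The study used iCLIP on HEK293F, a human embryonic kidney line, after cross-linking protein to RNA with UV light. The 2 groups have 2 libraries each, 1 pull-down with an antibody to the RNA helicase MOV10 and 1 with an irrelevant antibody against zebra finch FMRP in each of 2 experiments, which the labels number as replicates. The cells carry no treatment or engineered allele named in the labels. The labels assign 1 list of aligned reads to both pull-downs of an experiment, so no read can be given to a pull-down and no region is called enriched over control. Consolidated regions are, by the name of their list, those present in both experiments, and each holds at least 1 read of both. There is 1 read list per experiment and no replicate error within it, and the intervals below cover counting error only. These intervals treat the reads or fragments counted as independent, which reads of identical ends may not be, so they can be too narrow.

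Small GTPases are switches: they act when bound to GTP, exchange factors load them with GTP, activating proteins make them hydrolyse it, and dissociation inhibitors hold some of them in the cytosol in the GDP form. Their signals are read by effectors that bind the GTP form. ARF3 is an ADP-ribosylation factor of the Golgi that recruits coats for vesicle traffic, and RASL10B is a member of the Ras superfamily. ARHGDIA encodes a widely expressed dissociation inhibitor, and RASSF2 encodes a Ras-association domain protein that can bind Ras and the MST kinases. MOV10 is a helicase found with Argonaute proteins and the decay factor UPF1 on messenger RNAs. In iCLIP, reverse transcription tends to stop at the base linked to protein, so the 5' end of a read marks the base beside that link.

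Both read lists hold only reads inside the 1181 regions, so the shares below are of such reads and not of all reads sequenced. The 8 regions held 25 reads of experiment 1 and 512 of experiment 2, all on the strand of their gene, as the selection required. They were 0.622% of the 4021 reads of experiment 1 and 8.49% of the 6032 of experiment 2. Counted as distinct fragments, where all reads of identical start and end make 1 fragment, they were 15 and 52, or 0.831% and 3.14%. Each read name holds a number taken as the copies of a sequence, and by summed copies the regions took 0.321% and 14.3%. Names start with 06, with 07 or with neither, and these 3 kinds are called name groups. Of the 512 reads of experiment 2, 505 lay in 3 regions, in RASSF2, ARHGDIA and RASL10B. The other 5 held 17 reads in experiment 1 and 7 in experiment 2.

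**Figure D1:**
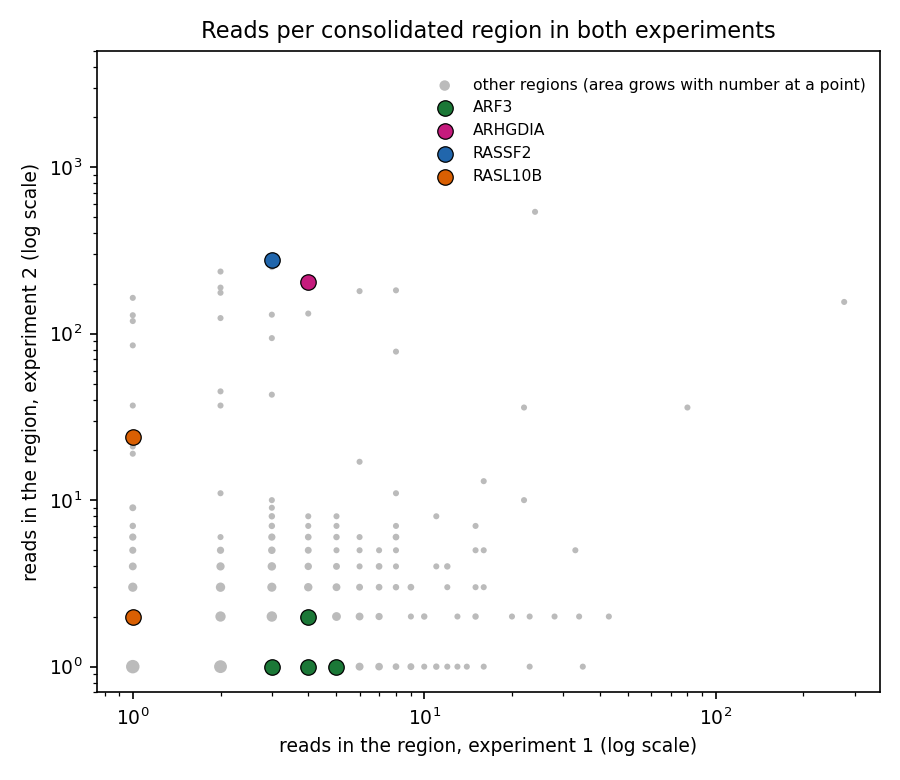
Reads per consolidated region in experiment 1 (x axis) and experiment 2 (y axis), both on log scales, with 1 coloured point for each of the 8 regions and grey points for the others. The RASSF2 and ARHGDIA regions stand at 278 and 203 reads in experiment 2 against 3 and 4 in experiment 1, and the ARF3 regions at 1 or 2 against 3 to 5.

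All 8 regions lay towards the 3' end of their genes. The distances from the 3' limit of the gene were 257 to 304 nt in RASSF2, 428 to 534 nt in ARHGDIA, 491 to 877 nt in RASL10B and 858 to 2326 nt in ARF3. GENCODE release 29, an annotation of another build whose positions were not used, holds a transcript of the same span for ARF3 (21829 nt) and ARHGDIA (3686 nt). For RASSF2 the spans are 43624 nt on hg19 and 43623 nt in GENCODE, and for RASL10B 11862 and 11873 nt. The 3' UTRs of these transcripts lie in 1 exon each and measure 3224 nt in ARF3, 1155 nt in ARHGDIA, 4250 nt in RASSF2 and 2216 nt in RASL10B. All 8 distances are shorter than these UTRs. This compares lengths and does not place the regions on an hg19 transcript. Sequences of the regions are not shown, because no hg19 genome was used here.

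ARF3, the trafficking GTPase, was the gene with several regions of few reads each. In transcript order its regions ran from 49331775 to 49331832, from 49331591 to 49331642, from 49331276 to 49331335 and from 49330364 to 49330405, within 1469 nt and with gaps of 132, 255 and 870 nt. They held 5, 4, 3 and 4 reads in experiment 1 and 1, 1, 1 and 2 in experiment 2. Each of the 4 thus had fewer reads in experiment 2. Together the 16 reads were 0.398% of experiment 1 (95% exact Clopper-Pearson interval 0.228 to 0.645) and the 5 reads were 0.0829% of experiment 2 (0.0269 to 0.193). The log2 ratio of shares, experiment 2 over 1, was -2.26 (exact conditional interval -4.07 to -0.75). Over all 1181 regions the median log2 ratio was -1.17, and 83.1% of them had a lower share in experiment 2, as did these 4 of the 8. With the totals taken without the other regions of at least 50 reads, the ratio of ARF3 was -1.19 (interval -2.99 to 0.33), and by distinct fragments, 10 against 5, it was -0.87 (interval -2.77 to 0.81). The same totals raise the ratios of the other genes given below, to 6.05 in ARHGDIA, 6.88 in RASSF2 and 4.19 in RASL10B.

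In 3 of the 4 ARF3 regions the most read fragment of experiment 1 had nearly the same ends as a fragment of experiment 2, as in most of the list. Over all 1181 regions, the most used 5' end of experiment 2 lay 1 nt downstream of that of experiment 1 in 832 and at the same base in 164, together 84.3%. In the first region, the fragment from 49331799 to 49331832 had 3 reads in experiment 1, 1 in each name group, with 11 copies, and experiment 2 had 1 read from 49331799 to 49331831. Its 5' end thus lay 1 nt further downstream in experiment 2. The same offset joined the most read fragment of the second region, of 22 nt in experiment 1 and 21 nt in experiment 2. The last region showed it in 2 ways, with 5' ends at 49330405 and 49330396 in experiment 1 and at 49330404 and 49330395 in experiment 2, while 1 read of experiment 1 also began at 49330395. The first and second regions each also held 1 read of experiment 1 without such a counterpart, from 49331775 to 49331806 and from 49331591 to 49331628. Reads of both experiments covered 56.9% and 40.4% of the widths of these 2 regions, against a median of 97.0% over all 1181. The third region differed. Its fragments shared the 3' end at 49331276, but they began at 49331304 and 49331310 in experiment 1 and at 49331335 in experiment 2, so that the 60 nt fragment of experiment 2 began 31 nt upstream of the most read one of experiment 1.

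The median mapping quality of the ARF3 reads was 70 in both experiments. Novoalign was among the tools named, and 70 is the highest value in the files. The 22 nt fragment of the second region had 38 in each of its 3 reads, and its 21 nt counterpart had 30, while a 38 nt read of the same region had 70. No ARF3 read was under 30.

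**Figure D2:**
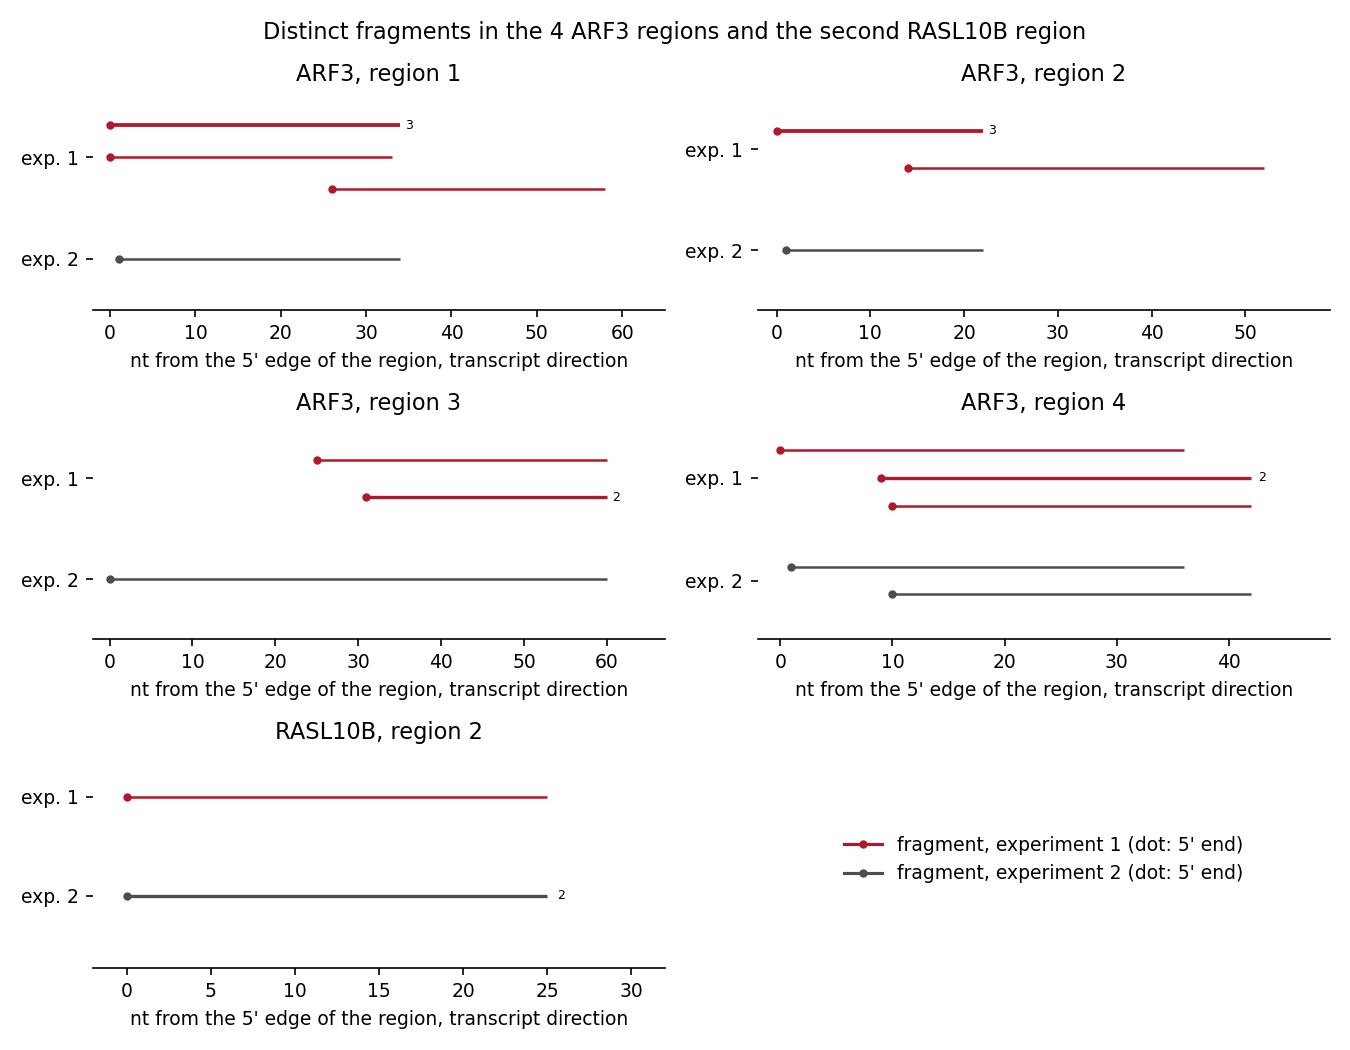
Distinct fragments (lines) in the 4 ARF3 regions and the second RASL10B region, in nt from the 5' edge of each region in the direction of transcription, experiment 1 in red and experiment 2 in grey. Dots mark 5' ends and numbers give reads where there is more than 1. Both experiments share a 3' end in each panel, and in the third ARF3 region the most used 5' ends lie 31 nt apart.

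RASL10B, the other GTPase of the set, had regions of both kinds, 255 nt apart. The second in transcript order, from 34070025 to 34070049, had 1 read in experiment 1 and 2 in the other, all with exactly the same 25 nt. Their mapping quality nevertheless differed, at 31 in experiment 1 and 56 in experiment 2. The first region, from 34069663 to 34069769, had 1 read in experiment 1 and 24 in the other, or 0.0249% (interval 0.00063 to 0.138) and 0.398% (0.255 to 0.591) of reads. Its log2 ratio of shares was 4.0 (interval 1.38 to 9.36), which has a single read in its denominator. For both RASL10B regions together, 2 and 26 reads, the log2 ratio was 3.12 (interval 1.12 to 6.24). By distinct fragments, 2 and 7, it was 1.93 (interval -0.46 to 5.23), and within the names starting 07 or with neither prefix it was 2.46 (interval -0.39 to 7.91) and 1.87 (interval -1.29 to 7.43). These 3 intervals include 0.

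The experiments recovered different stretches of this first RASL10B region. The read of experiment 1 ran from 34069663 to 34069711 with 2 copies. In experiment 2, 18 of 24 reads, with 80 of 86 copies, were the 71 nt fragment from 34069699 to 34069769, and 4 more began at the same base. The most used 5' ends thus lay 36 nt apart, and only 13 of the 107 nt were covered in both experiments. All 25 reads had a mapping quality of 70.

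ARHGDIA, the dissociation inhibitor, showed the widest spread of fragment ends. Its region, from 79826025 to 79826131, had 4 reads in experiment 1 and 203 in the other, or 0.0995% (interval 0.0271 to 0.255) and 3.37% (2.92 to 3.85) of reads. The log2 ratio of shares was 5.08 (interval 3.70 to 6.97). By distinct fragments the numbers were 2 and 33, a log2 ratio of 4.17 (interval 2.20 to 7.27). In experiment 2 this placed the region at rank 5 of 1181 by reads and rank 2 by fragments.

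Those 33 fragments had few starts and many stops. A single 5' end, at 79826086, was shared by 29 of them and by 194 of the 203 reads (95.6%, interval 91.8 to 98.0). The 3' ends of the 29 fragments filled 29 of the 34 positions from 79826030 to 79826063, and fragment length ran from 24 to 57 nt. The longest fragment, from 79826030 to 79826086, had 128 reads, the next shorter one had 18, and the other 27 shared 48 reads, 15 of them with 1 read each. The remaining 9 reads used 3 other 5' ends. Counted by 5' ends, the region thus had 4 in experiment 2 against 2 in experiment 1. Among the 34 regions with at least 10 reads in experiment 2, the median numbers of 5' and 3' ends were 3 and 7, beside 4 and 30 here. Fewer 5' than 3' ends is thus also seen in the medians of such regions. Their median number of fragments at the most shared 5' end was 6.5. The value of 29 was the highest, and 1 region outside the 4 genes equalled it.

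The fragments of experiment 1 in ARHGDIA began elsewhere. They ran from 79826030 to 79826056 and from 79826062 to 79826131, with 2 reads each and 3 and 5 copies. The first has the same 3' end as the 128 reads of experiment 2, but begins 30 nt further downstream. The second has the same 3' end as a 25 nt fragment of experiment 2 with 1 read, but begins further upstream. The 5' ends of the experiments had no base in common, and 52 of the 107 nt were covered in both.

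**Figure D3:**
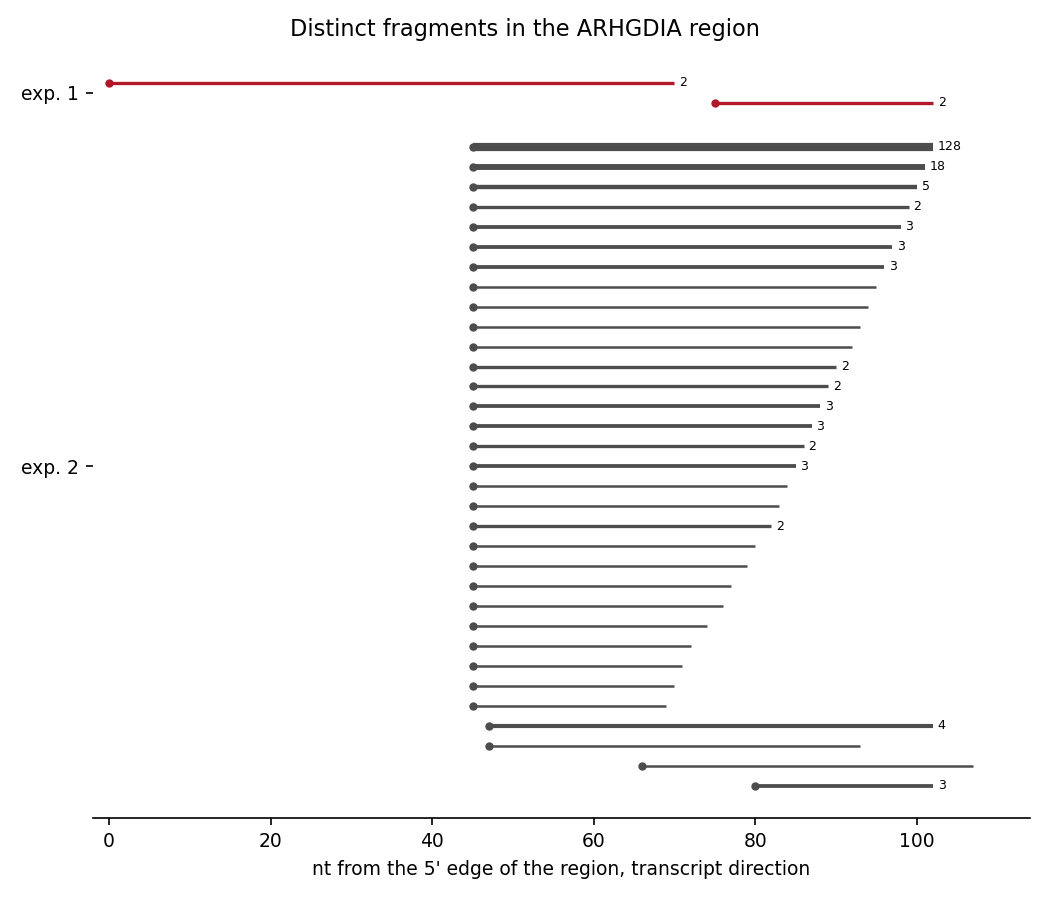
Distinct fragments (lines) in the ARHGDIA region, in nt from its 5' edge in the direction of transcription, experiment 1 in red and experiment 2 in grey. Dots mark 5' ends and numbers give reads where there is more than 1. In experiment 2, 29 fragments begin at 1 base and end at 29 different ones, and neither fragment of experiment 1 begins there.

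RASSF2, the Ras effector, had the most reads of the set. Its region, from 4760925 to 4760972, had 3 reads in experiment 1 and 278 in the other, or 0.0746% (interval 0.0154 to 0.218) and 4.61% (4.09 to 5.17) of reads. The log2 ratio of shares was 5.95 (interval 4.39 to 8.24). Its 10730 copies were 12.2% of all copies of experiment 2 and ranked first among the 1181 regions, against 10 copies in experiment 1. By distinct fragments, 1 and 7, the log2 ratio was 2.93 (interval -0.03 to 8.43).

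The RASSF2 reads of the experiments scarcely met. The 3 reads of experiment 1, 1 in each name group, were all the 24 nt fragment from 4760925 to 4760948. In experiment 2, 232 of 278 reads were the 28 nt fragment from 4760945 to 4760972, and 258 (92.8%, interval 89.1 to 95.6) began at 4760972. The overlap was 4 nt of the 48 nt region, so the region joins a downstream fragment of experiment 1 to an upstream one of experiment 2. Only 6 of the 1181 regions had a smaller covered share than its 8.33%, and the first RASL10B region, with 12.1%, came next. Both have no 5' or 3' end shared between experiments.

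Reads and copies gave different pictures of mapping quality in RASSF2. The 3 reads of experiment 1 had 26, and those of experiment 2 had a median of 43, with 48 reads under 30. Within the 28 nt fragment, 151 of 232 reads (65.1%) had a quality of 43 and 37 (15.9%) had 70. Those 37 reads carried 9963 of its 10652 copies (93.5%), and the 151 reads carried 633 (5.94%). The most copied read in each name group, with 2957, 3000 and 3913 copies, had a quality of 70. The median over reads thus reflects names of few copies, and the quality of most copies was 70. The lists hold no bases, so how these sequences of equal ends differ was not analysed here.

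**Figure D4:**
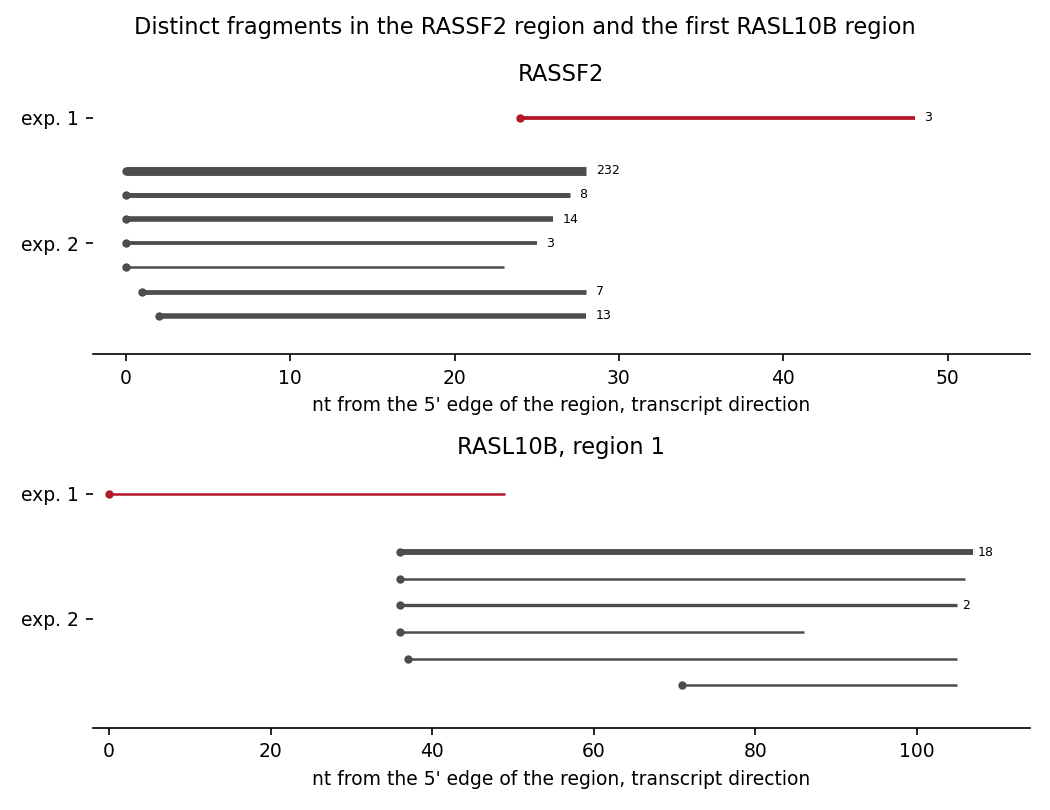
Distinct fragments (lines) in the RASSF2 region and the first RASL10B region, in nt from the 5' edge of each region in the direction of transcription, experiment 1 in red and experiment 2 in grey. Dots mark 5' ends and numbers give reads where there is more than 1. The experiments share 4 nt in RASSF2 and 13 nt in RASL10B.

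A few sequences held most of the experiment 2 copies in the 3 genes with a region of at least 10 reads in that experiment. The most copied read of each name group summed to 9870 of 10730 copies in RASSF2 (92.0%), to 1382 of 1733 in ARHGDIA (79.7%) and to 65 of 88 in the whole of RASL10B (73.9%). Reads of a single copy were 151 of 278, 155 of 203 and 23 of 26. Of the distinct fragments of experiment 2, 6 of 7 in RASSF2, 15 of 33 in ARHGDIA and 3 of 7 in RASL10B occurred in at least 2 name groups. The 5 in ARF3 had a single read each and so could not. These counts depend on the reads per fragment, and no difference between genes is read from them. In experiment 1 the most copied reads of each name group held 100% of 10 copies in RASSF2, 87.5% of 8 in ARHGDIA and 100% of 3 in RASL10B. Such shares are not given here for the other regions of the list, so they are not read as particular to these genes.

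Matching fragment ends were then counted over the set. A match is taken as the same 3' end together with a 5' end that is identical, or shifted downstream by 1 nt in experiment 2. It was found in 4 of the 8 regions, beside 86.3% of all 1181. All 4 were among the 5 regions with few reads, beside 88.0% of the 1147 regions under 10 reads in experiment 2. The 3 regions with at least 10 reads had 0 matches, beside 10 of the 34 such regions of the list (29.4%). Reads of both experiments covered less than 50% of the width in 4 of the 8 regions, beside 6.44% of all, and the median covered share was 52.7% against 97.0%. Of those 4, 3 were the regions with at least 10 reads in experiment 2, and the other was the second ARF3 region, at 40.4%. The median covered share of the 34 regions of the list with at least 10 reads in experiment 2 was 62.9%. A read share at least 8-fold higher in experiment 2 was found in 3 of the 8 and in 2.03% of all, and at least 50 reads in experiment 2 in 2 of the 8 and in 1.61%. The choice of genes used these read numbers, so nothing is read from the last 2 counts.

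The lowest mapping qualities were found at short fragments. Among the ARHGDIA fragments that begin at 79826086, those of 24, 25, 26 and 27 nt had qualities of 20, 51, 55 and 56. The fragments of 29 nt or more had 70, except for 1 of the 2 reads of 37 nt, which had 64. The RASSF2 fragments were 23 to 28 nt long with medians of 26 to 44, and the RASL10B fragments of 34 nt or more all had 70.

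**Figure D5:**
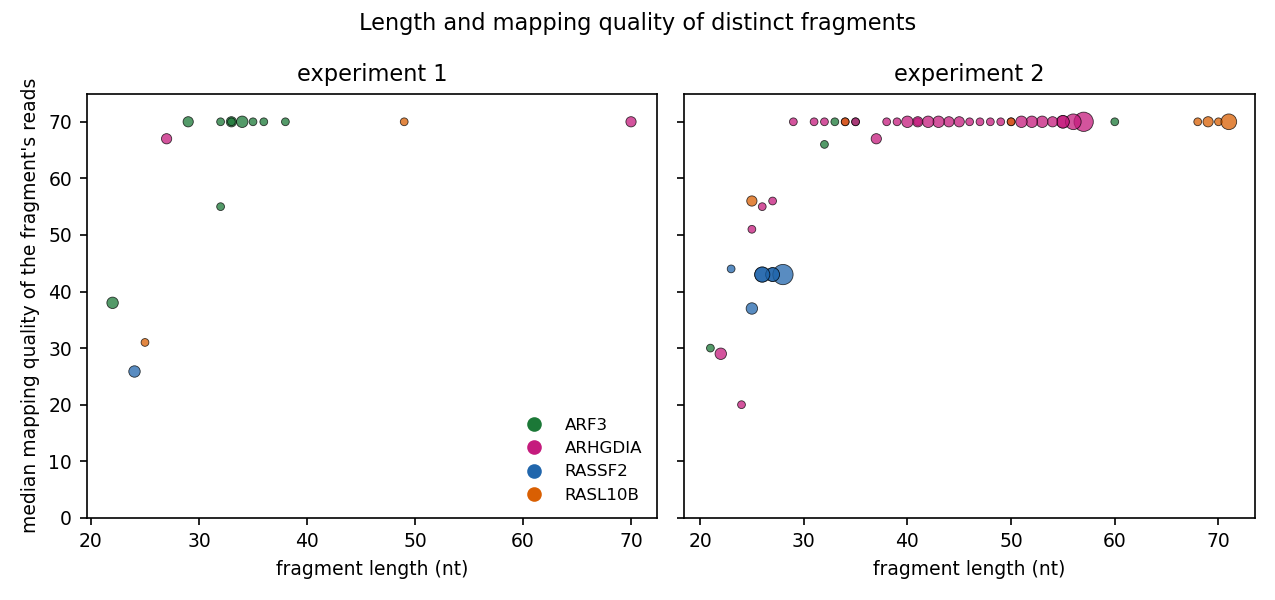
Length in nt (x axis) and median mapping quality (y axis) of every distinct fragment in the 8 regions, experiment 1 on the left and experiment 2 on the right, with larger points for more reads. Values under 60 are found only at 32 nt or less, and the large RASSF2 points lie at 43.

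Regions outside the 4 genes with the most similar numbers were sought by distance over the log2 of reads and distinct fragments, each plus 1, in both experiments. For RASSF2 they were on chromosome 2 from 178087376 to 178087437, with 3 and 251 reads and 1 and 12 fragments, and on chromosome 22 from 41755398 to 41755424, with 2 and 176 reads and 1 and 7 fragments. For ARHGDIA they were on chromosome 19 from 15533256 to 15533305, with 2 and 124 reads and 1 and 16 fragments, followed by the same region of chromosome 2. In experiment 2, 13 of the 16 fragments on chromosome 19 and 9 of the 12 on chromosome 2 began at a single base. The ARHGDIA region stood further from its nearest one (distance 1.54) than RASSF2 (0.72), RASL10B (0.52) or ARF3 (0.42) did. For the first RASL10B region they were on chromosome 20 from 62421220 to 62421268, with 1 and 21 reads, and on chromosome 17 from 61670298 to 61670351, with 1 and 19. For the last ARF3 region, which ties with the first at 6 reads and was taken by position, the nearest were on chromosome 15 from 99505295 to 99505342 and on chromosome 8 from 103269919 to 103269944, each with 4 and 2 reads.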

How the data were processed

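Per the labels, 4 iCLIP libraries of HEK293F cells were sequenced on a HiSeq2000. The build hg19 and the tools Novoalign, bedtools, SAMtools and CASAVA 1.8.2 are named, per the submitters' processing notes. The region list is named as holding regions present in both experiments. How these were made is otherwise not given in the sources used here. For each aligned read, the deposited score, from 0 to 70 without decimals, was taken as mapping quality, which is inferred from the values. The deposited start and end of reads and regions are given 1-based. Names were split into copies and rank, with 0 breaks of order. An overlap of at least 1 base on the gene's strand placed a region in a gene.

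The members and lists were chosen with earlier results of these data known. Named were all 8 regions of the 4 genes, fragments with at least 10% of the reads of their region, and the 2 nearest regions outside; other fragments named were chosen after their values were seen. A list of other GTPase genes was not analysed for want of an hg19 annotation. Shares have 95% exact Clopper-Pearson intervals; ratios have exact conditional binomial intervals. The search for matching ends was tested on simulated data of 1181 regions, where 300 of 300 planted matches and 0 others were found. All simulated fragments of a region had the same 3' end in both experiments, and those not planted had larger downstream shifts. The result therefore checks the computation only. Alternatives covered mapping quality, the unit counted, totals, name groups, gene limits and replicates. The tools were matplotlib 3.10.9, scipy 1.17.1, pandas 2.3.3, numpy 2.4.6 and Python 3.11.15 (random seed 1).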

Additional observations from a re-analysis of the deposited data

How the results depend on the processing

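Over 13 results and 59 alternatives, 45 values stayed within the interval of the reported one, or within 1.5 times for the number of regions, and 14 moved beyond it. None changed sign. The number of regions was 8 with whole inclusion, either strand or 1000 nt added. It was 7 with mapping quality of 30 or more, where the RASSF2 region has no read of experiment 1 left. Without replicate 1 or 2 it was 8 and 9. Every read of both lists lies in a region with reads of both experiments, so leaving out a replicate could not lose a region. By copy numbers the log2 ratio of ARF3 was -4.83. By distinct fragments that of RASSF2 was 2.93, and the share at the most used 5' end was 87.9% in ARHGDIA, 71.4% in RASSF2 and 57.1% in RASL10B. By copy numbers that share was 99.4% in ARHGDIA and 99.7% in RASSF2. The median mapping quality of RASSF2 was 56 over distinct fragments at their best score. Without replicate 2, experiment 1 alone gave shares at the most used 5' end of 50% in ARHGDIA (4 reads), 100% in RASSF2 (3 reads) and 50% in RASL10B (2 reads), and median qualities of 68.5, 26 and 50.5. The causes were not tested. No ratio could be had for RASSF2 at quality 30 or more, for RASL10B in the names starting 06 or for ARF3 in those starting 07, with 0 reads in 1 experiment. No paired analysis was possible because each list of reads belongs to both pull-downs. Between 1 and 5 reads per region in experiment 1 limit every ratio.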
